A study of Arabidopsis thaliana with 2 samples.

Results

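The SUVH genes of Arabidopsis thaliana encode a family of proteins related to the fly Su(var)3-9 histone methyltransferase, and 10 of them, SUVH1 to SUVH10, are described here. Regions of altered DNA methylation were taken at these genes wherever a listed region overlapped the gene or lay within 1 kb of either end. This gave 56 of the 83934 regions in 6 lists, of which 27 of 39260 belong to the comparison of ddb2-3 with Col and 29 of 44674 to the comparison of a line called cen with Col. The study compared the methylomes of plants with lesions in global genome repair, the pathway that finds DNA damage anywhere in the genome, with that of wild type. Seedlings were grown in vitro for 10 days, and their genomic DNA was bisulfite sequenced, which converts unmethylated cytosines and leaves methylated ones. The labels describe 1 library of ddb2-3 (DsLoxHs195_05H), which carries an insertion in DDB2 (DDB2 recognises UV-damaged DNA), and 1 library of Col wild type. The labels hold no sample named cen, so the genotype of that line is not stated, and for it the authors' region lists alone were analysed.

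The better described SUVH proteins bind methylated DNA through an SRA domain and carry a SET domain, the fold of lysine methyltransferases. Whether SUVH10, whose gene spans only 939 bp, has both domains was not checked. SUVH4, also called KRYPTONITE, and its relatives SUVH5 and SUVH6 dimethylate lysine 9 of histone H3. The chromomethylases CMT3 and CMT2 bind that mark and methylate CHG and CHH cytosines (H is any base but G), which SUVH proteins bind in turn, so histone and DNA methylation maintain each other in silent chromatin. SUVH2 and SUVH9 have no known methyltransferase activity and bring RNA polymerase V to methylated DNA in the RNA-directed pathway, while SUVH1 and SUVH3 bind methylated promoters and help the nearby genes to be expressed. CG methylation, kept by MET1, also occurs inside many expressed genes, where it is known as gene-body methylation.

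Each list gives a position on a grid of 100 bp and, in column 6, a difference in methylation level between -1 and 1. Values are printed as deposited. Their direction is not stated and was read as Col minus the line, so a positive value means the line was lower than Col and a negative one that it was higher. If that reading is wrong, every higher and lower below is exchanged. The labels give 1 library each for ddb2-3 and Col, and the number behind the cen lists is not known. The lists hold no level per library and no reads, coverage or p-value per region, so no test across plants was possible and the error of a single value is unknown. A place that is in no list either differed by 0.1 or less, or was not called for another reason, such as low coverage. The lists hold no expression values, so neither the lesion in DDB2 nor the activity of the SUVH genes could be checked. Both comparisons name Col, for which the labels give 1 library, so they are not independent of each other.

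Changes listed at the SUVH genes were almost all in the CG context and lay in both directions. CG regions were 53 of the 56 at these genes, and they were also most of the lists as a whole, at 63174 of 83934. In ddb2-3, 9 of the 10 genes had a CG region, all but SUVH7, while 57.7% of the 27432 protein-coding genes had one by the same rule. In cen, 9 of 10 had one, all but SUVH1, against 60.1% of protein-coding genes. The members are longer than most genes, with a median span of 3061 bp against 2078 bp over protein-coding genes, and longer genes have more room for a region. Among the 12803 protein-coding genes of 2 to 5 kb the share was 70.7% in ddb2-3 and 73.0% in cen; SUVH10 is shorter than that range. The ddb2-3 list held 10 higher and 15 lower CG regions at these genes (40.0% higher, against 47.6% in the whole list). The cen list held 13 higher and 15 lower (46.4% higher, against 57.1% in the whole list). A higher CG region lay at 6 of 10 genes in ddb2-3, against 39.0% of protein-coding genes, and at 5 of 10 in cen, against 46.1%. A lower one lay at 8 of 10 genes in ddb2-3, against 43.0%, and at 9 of 10 in cen, against 40.1%. With the gene alone counted, 8 of 10 had a CG region in ddb2-3, against 43.5%, and 8 of 10 in cen, against 45.8%. The shares by direction and for the gene alone are over protein-coding genes of every length. They were not counted for genes of 2 to 5 kb.

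**Figure D1:**
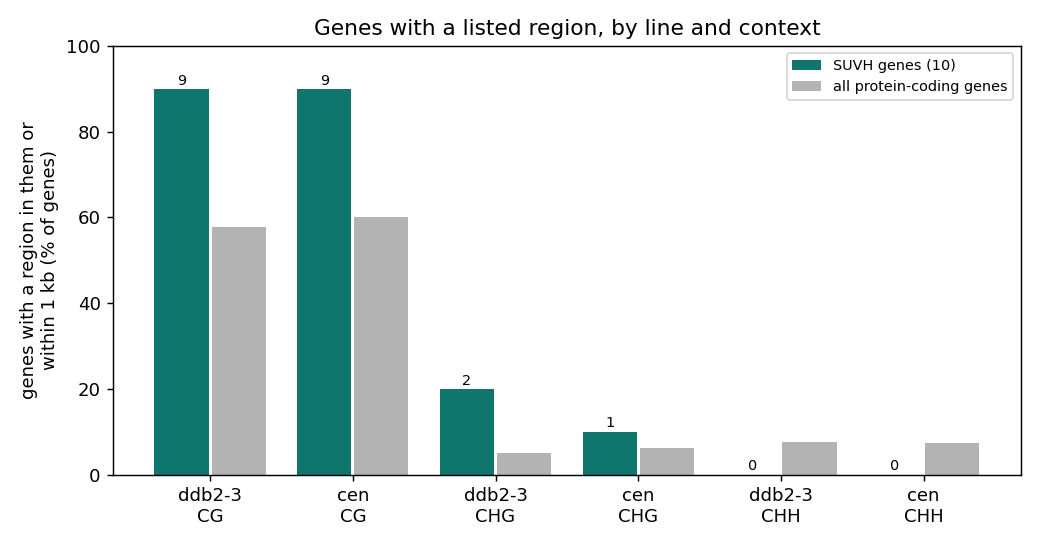
Share of genes with a listed region in them or within 1 kb (y axis, % of genes), for the 10 SUVH genes (green, with their count) and all protein-coding genes (grey), by line and cytosine context. The SUVH bars stand at 9 of 10 genes for CG in both lines, at 2 (ddb2-3) and 1 (cen) for CHG and at 0 for CHH.

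The histone methyltransferases SUVH4, SUVH5 and SUVH6 carried 10 of the 25 CG regions of ddb2-3 and 15 of the 28 of cen. Their genes span 4889, 3421 and 4401 bp, all above the median of 3061 bp over the members. Longer genes have more room for a region, and no share by length was computed for these genes. SUVH4 (AT5G13960, chromosome 5) had in the authors' deposited table for ddb2-3 a CG value of -0.595 at 4503201 to 4503300, 39% of the way along the gene from its low-coordinate end. It was followed by values of 0.474 at 4503501 to 4503600 (45%) and 0.375 at 4503901 to 4504000 (53%) in the same authors' deposited table. Within 800 bp of SUVH4, ddb2-3 was listed as higher than Col at 1 place and lower at 2. A CG difference as wide as the first was found in 2.35% of the whole ddb2-3 CG list. For cen, the authors' deposited table gave only lower regions at SUVH4, with 0.261 at 4502401 to 4502500, 0.375 at 4503901 to 4504000 and 0.325 at 4504201 to 4504500. At 4503901 to 4504000 the deposited values of ddb2-3 and cen were equal.

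SUVH5 (AT2G35160, chromosome 2) had higher regions from 27% to 61% of its span in ddb2-3 and from 29% to 75% in cen, with a lower region nearer the high-coordinate end in each line. In the authors' deposited table for ddb2-3, the CG values were -0.247 at 14823601 to 14823800 (27% along the gene), -0.546 at 14824801 to 14824900 (61%) and 0.453 at 14825401 to 14825800 (83%). The last of these, at 400 bp, was the longest region at any SUVH gene. In the authors' deposited table for cen, they were -0.144 at 14823701 to 14823800, -0.553 at 14824801 to 14824900, -0.271 at 14825301 to 14825400 and 0.303 at 14825701 to 14825800. At 61% of the span both lines were listed within 0.00756 of each other, and each exceeded a level of 0.5, since a difference of -0.546 puts ddb2-3 at 0.546 or above and one of -0.553 puts cen at 0.553 or above. Listed CG regions covered 20.5% of SUVH5 in ddb2-3 and 11.7% in cen.

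SUVH6 (AT2G22740, chromosome 2) was lower than Col at every CG region of ddb2-3, while cen had regions of both kinds. The authors' deposited table for ddb2-3 gave 0.389 at 9663601 to 9663700 (23% along the gene), 0.131 at 9664401 to 9664500 (41%), 0.487 at 9665401 to 9665600 (65%) and 0.249 at 9666001 to 9666100 (78%). For cen, the authors' deposited table listed lower regions at the last 3 of these places, with 0.127, 0.410 and 0.288. At the first of them the authors' deposited table for cen gave -0.181, so there cen was listed as higher than Col and ddb2-3 as lower. Other higher regions of cen had values of -0.112 at 9664301 to 9664400, -0.301 at 9664601 to 9664800 and -0.345 at 9665101 to 9665300 in the gene, and -0.147 at 9661901 to 9662000 beside it, in the authors' deposited table. In order along the chromosome, cen changed 3 times between higher and lower, and its 8 CG regions were the most at any member. The window at 9663601 also lies in the neighbouring gene AT2G22730, and all other regions in SUVH6 overlap AT2G07845, an annotated long noncoding RNA gene, so they cannot be given to SUVH6 alone.

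**Figure D2:**
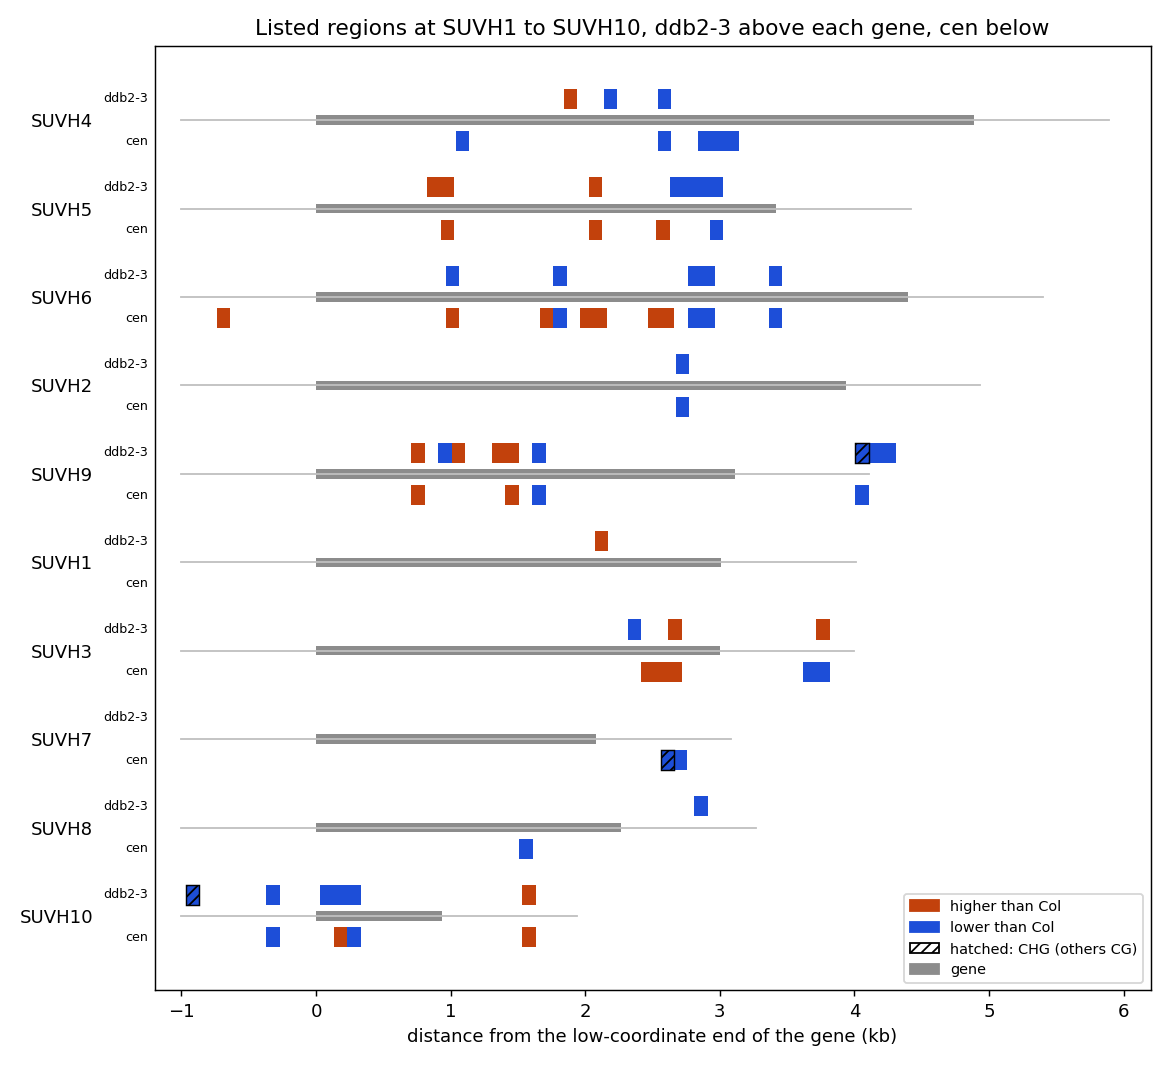
Listed regions along each SUVH gene (grey bar) and 1 kb to each side (grey line), drawn to scale from the low-coordinate end of the gene in kb, with ddb2-3 above and cen below the gene. Orange marks a line higher than Col and blue a line lower; hatched boxes are CHG regions and the others CG, and the CHG box at SUVH9 lies over the first 100 bp of a CG region of 300 bp. SUVH6 has 4 blue boxes for ddb2-3 and boxes of both colours for cen.

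SUVH2 and SUVH9, the pair that brings RNA polymerase V to methylated DNA, differed in how many regions they had. SUVH2 (AT2G33290, chromosome 2) had a single CG region, at 14111201 to 14111300 (69% along the gene), with 0.351 for ddb2-3 and 0.177 for cen in the authors' deposited tables. SUVH9 (AT4G13460, chromosome 4) had 5 CG regions in the gene for ddb2-3, and neighbouring windows went opposite ways. From the low-coordinate end, the authors' deposited table gave -0.146 at 7824601 to 7824700 (24%), 0.338 at 7824801 to 7824900 (31%), -0.158 at 7824901 to 7825000 (34%), -0.296 at 7825201 to 7825400 (45%) and 0.469 at 7825501 to 7825600 (53%). The adjoining windows at 31% and 34% were therefore listed with opposite signs. For cen, the authors' deposited table gave -0.147 at 7824601 to 7824700, -0.163 at 7825301 to 7825400 and 0.423 at 7825501 to 7825600. All of these lay between 24% and 53% of the span, and none lay in the part towards the high-coordinate end.

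Beyond the high-coordinate end of SUVH9, CG and CHG were listed as lower together in ddb2-3. In the authors' deposited tables the CG value was 0.297 at 7827901 to 7828200 and the CHG value 0.249 at 7827901 to 7828000. For cen, the authors' deposited CG table gave 0.278 at 7827901 to 7828000, and its CHG list had no region there. The place overlaps AT4G13470, annotated as a pseudogene.

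SUVH1 and SUVH3, which help genes with methylated promoters to be expressed, held the narrowest and the widest leading difference in ddb2-3 among the genes with a region. SUVH1 (AT5G04940, chromosome 5) had a single region, in CG and for ddb2-3 only, with -0.149 at 1456201 to 1456300 (70% along the gene) in the authors' deposited table. SUVH3 (AT1G73100, chromosome 1) held the widest difference of all 56 regions, a CG value of 0.733 for ddb2-3 at 27493501 to 27493600 (79% along the gene) in the authors' deposited table. A difference of that size places ddb2-3 at a level of 0.267 or less and Col at 0.733 or more, and 0.880% of the whole ddb2-3 CG list reached it. A second region, at 27493801 to 27493900 (89%), had -0.176 for ddb2-3 in the authors' deposited table, so the direction changed within 400 bp. For cen, the authors' deposited table gave -0.251 at 27493601 to 27493900, beside the window of the widest difference but not in it. Beyond the high-coordinate end of SUVH3, the authors' deposited tables gave -0.241 for ddb2-3 at 27494901 to 27495000 and 0.516 for cen at 27494801 to 27495000. That place lies inside the neighbouring gene AT1G73110, and the signs of the lines were opposite there.

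The remaining genes are less well described. SUVH7 (AT1G17770, chromosome 1), which is known as an imprinted gene expressed from the paternal copy in endosperm, had no region in the gene in either line. Beyond its high-coordinate end, in the authors' deposited tables for cen, adjoining windows had a CHG value of 0.274 at 6123301 to 6123400 and a CG value of 0.377 at 6123401 to 6123500. They lay in no annotated gene, and no ddb2-3 region was listed there. SUVH8 (AT2G24740, chromosome 2) had 1 CG region in each line and both were lower than Col, with 0.230 for ddb2-3 at 10532501 to 10532600, beyond the high-coordinate end, and 0.181 for cen at 10531201 to 10531300, in the gene (69%), in the authors' deposited tables. Both overlap AT2G24735, annotated as a noncoding RNA gene.

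SUVH10 (AT2G05900, chromosome 2) is the shortest member, at 939 bp, and the only one within 3 Mb of a centromere. In the authors' deposited table for ddb2-3, it had a CG value of 0.423 at 2257001 to 2257300, or 31.9% of its span. For cen, the authors' deposited table gave -0.284 at 2257101 to 2257200 and 0.463 at 2257201 to 2257300, adjoining windows of opposite sign, and no region in the first 100 bp of that stretch. Beside the gene, the authors' deposited tables gave 0.201 for ddb2-3 and 0.192 for cen at 2256601 to 2256700, and -0.361 for ddb2-3 and -0.315 for cen at 2258501 to 2258600, and the second of these places is inside the neighbouring gene AT2G05910. A CHG value of 0.171 for ddb2-3 at 2256001 to 2256100 overlaps AT2G05890, annotated as a pseudogene, in the authors' deposited table.

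**Figure D3:**
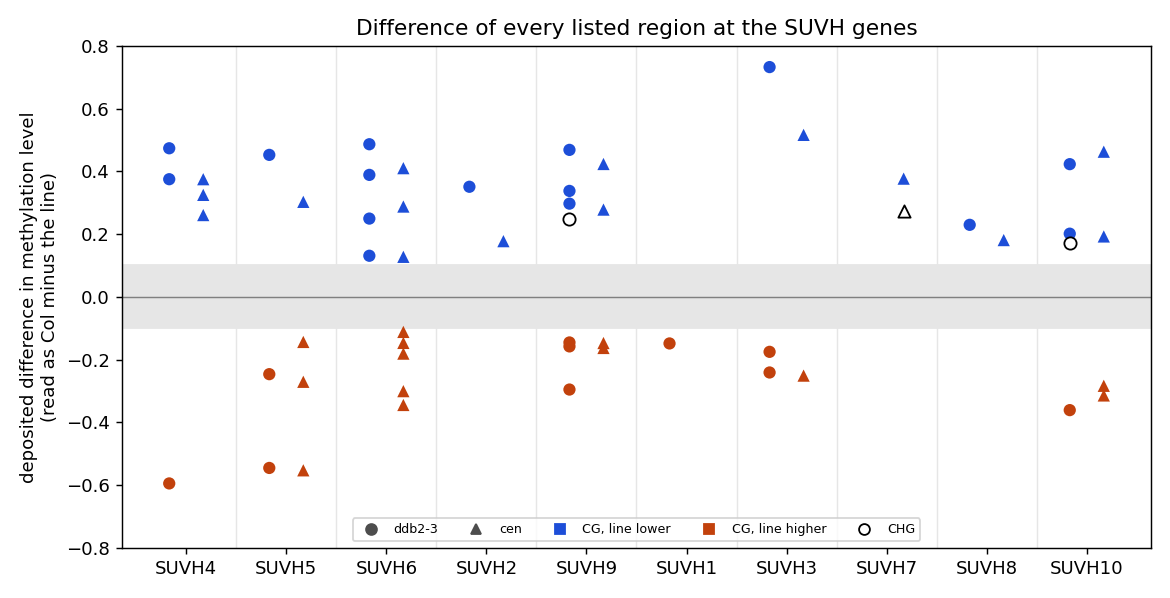
Deposited difference in methylation level (y axis, Col minus the line) of all 56 regions, by gene, with ddb2-3 as circles left of cen as triangles; blue CG points are lower and orange CG points higher in the line, and open points are CHG. The grey band from -0.1 to 0.1 holds no listed region, and SUVH3 has the highest point, at 0.733.

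Outside CG, the family had 3 CHG regions and no CHH region. CHG regions lay at 2 of 10 genes in ddb2-3, SUVH9 and SUVH10, against 5.04% of protein-coding genes, and at 1 of 10 in cen, SUVH7, against 6.19%. All 3 lay beside the gene and not in it, and all were lower than Col. A lower CHG region lay at 2.75% of protein-coding genes in ddb2-3 and 1.08% in cen, although 60.7% of the whole CHG list was higher in ddb2-3 and 89.8% in cen. With counts of 2 and 1 nothing can be said of a difference from other genes. CHH regions lay at 0 of 10 genes in both lines, against 7.66% of protein-coding genes in ddb2-3 and 7.33% in cen. At shares of that size 10 genes can easily hold no CHH region, so nothing can be said of a difference here either.

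By size, the CG differences at the SUVH genes had a median of 0.338 in ddb2-3, against 0.232 in the whole list. In cen the median was 0.281, against 0.232 in the whole list. Inside the genes alone the medians were 0.363 in ddb2-3 and 0.277 in cen, and for list regions inside any protein-coding gene they were 0.246 and 0.249. Lower regions were the wider ones in ddb2-3, with a median of 0.375 for 15 lower regions and 0.244 for 10 higher ones, while the whole list had 0.235 and 0.228. In cen the medians were 0.303 for lower and 0.251 for higher regions, against 0.248 and 0.221 in the whole list. The ranges of the 2 directions overlapped widely, from 0.131 to 0.733 for lower and 0.146 to 0.595 for higher regions in ddb2-3. In cen they ran from 0.127 to 0.516 for lower and 0.112 to 0.553 for higher regions. With 25 and 28 regions that share genes, these medians are descriptions of the lists, with no test.

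**Figure D4:**
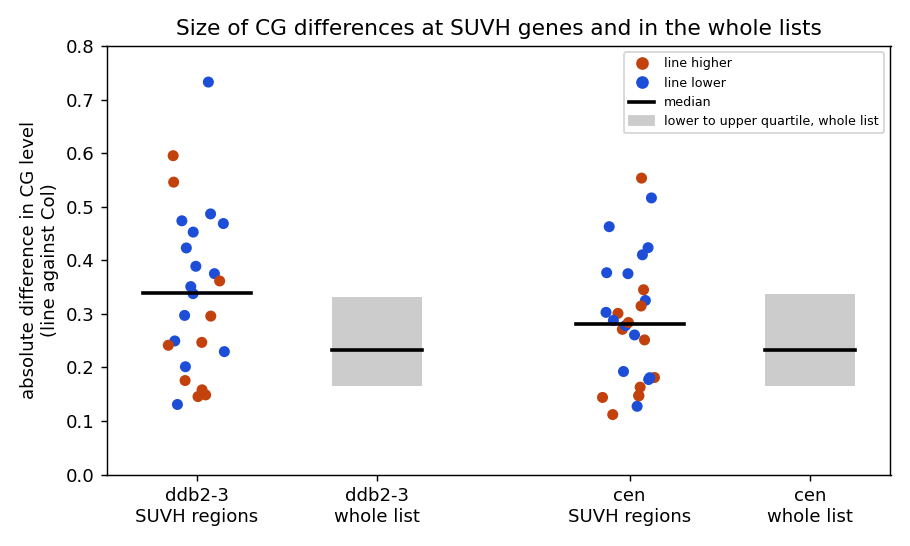
Absolute difference in CG level (y axis, line against Col) of each region at the SUVH genes (points, orange where the line was higher and blue where it was lower), beside the whole list of the same line (grey box from lower to upper quartile); black bars are medians. The SUVH medians are 0.338 for ddb2-3 and 0.281 for cen, above the whole-list median of 0.232, and the points spread across and beyond the grey boxes.

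Most CG regions overlapped the genes, and their place along the span was close to that in other genes. In ddb2-3, 20 of 25 CG regions overlapped the gene, and 13 of those 20 (65.0%) were centred between 25% and 75% of its span, against 62.8% of regions in all protein-coding genes. In cen it was 22 of 28, with 15 of 22 (68.2%) in the middle, against 62.8%. The outermost regions in the genes were centred at 19% and 89% of the span. Per kb of gene, the members had 0.644 regions in ddb2-3 and 0.708 in cen, while all protein-coding genes had 0.371 and 0.402. The latter include genes with no CG region, and no density was computed for genes matched to the members. The member densities rest on the 20 and 22 regions above, and 7 of the 22 in cen were in SUVH6. Regions of both directions were found at 5 of the 9 members with a CG region in ddb2-3 and 5 of 9 in cen, against 42.0% and 43.2% of protein-coding genes with a CG region. Those shares are over genes of every length, and longer genes, as most members are, have more room for regions of both directions. In ddb2-3, SUVH2, SUVH6 and SUVH8 had lower CG regions alone and SUVH1 a higher one alone. In cen, SUVH2, SUVH4, SUVH7 and SUVH8 had lower CG regions alone.

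Where both lists gave the same window, the lines could be set against each other, because the level of Col cancels if the same Col level entered both comparisons. The widest gap was at 9663601 to 9663700 in SUVH6, where ddb2-3 minus cen came to -0.570. The values there place ddb2-3 at a level of at most 0.430, cen at 0.570 or more, and Col between 0.389 and 0.819. At the window in SUVH2 ddb2-3 minus cen was -0.173, and at 9665401 to 9665600 in SUVH6 it was -0.0763. At the other windows of SUVH6 it was -0.00343 at 9664401 to 9664500 and 0.0383 at 9666001 to 9666100. At the 2 windows of SUVH9 the gaps were -0.00184 and -0.0451, and at those beside SUVH10 they were -0.00888 and 0.0468. No error is known for these gaps, so which of them exceed sampling noise was not tested.

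Relatives of the SUVH genes and genes that act in pathways linked to them were counted by the same rule in 3 lists of 17 genes in all. They had CG regions at 17 of 17 genes in ddb2-3, against 57.7% of protein-coding genes and 70.7% of those of 2 to 5 kb. In cen it was 16 of 17, against 60.1% and 73.0%. These 17 genes were not matched to that range of length, and at least NRPE1, a partner of SUVH2 and SUVH9, is longer than it. The lists held 30 higher and 24 lower CG regions in ddb2-3 and 34 higher and 33 lower in cen. The median CG difference of the 3 lists together was 0.255 in ddb2-3 and 0.271 in cen. Of the 5 SUVR genes, relatives of the SUVH genes without the SRA domain, 5 had a CG region in ddb2-3 and 4 in cen. SUVR5 (AT2G23740) had the widest, with -0.569 for ddb2-3 and -0.613 for cen at chromosome 2, 10102701 to 10103000, in the authors' deposited tables. Of the 5 genes of the link between lysine 9 methylation and CHG methylation (CMT3, CMT2, IBM1, EDM2 and IBM2), all 5 had one in each line. CMT3 (AT1G69770) had the widest, with 0.564 for ddb2-3 and 0.505 for cen at chromosome 1, 26250101 to 26250300, in the authors' deposited tables.

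Of the 7 partners of SUVH2 and SUVH9 in RNA-directed methylation (DRD1, DMS3, RDM1, NRPE1, MORC1, MORC6 and DRM2), all 7 had a CG region in each line, where protein-coding genes had one at 57.7% in ddb2-3 and 60.1% in cen. MORC6 (AT1G19100), an ATPase of gene silencing, had the widest, with 0.503 for ddb2-3 at chromosome 1, 6598401 to 6598500, in the gene, and 0.663 for cen at 6594001 to 6594200, beside it, in the authors' deposited tables. Beside MORC6 cen was listed as lower in all contexts, with a CHG value of 0.274 at 6594101 to 6594300 and a CHH value of 0.232 at 6594001 to 6594100 in the authors' deposited tables. DMS3 (AT3G49250), a protein of the complex that loads RNA polymerase V, had a CHG value of 0.299 for ddb2-3 beside the gene, at chromosome 3, 18255801 to 18255900, in the authors' deposited table. No other gene of the 3 lists had a CHG or CHH region in either line. CHG regions thus lay at 1 of 17 genes in ddb2-3, against 5.04% of protein-coding genes, and at 1 of 17 in cen, against 6.19%. CHH regions lay at 0 of 17 in ddb2-3, against 7.66%, and at 1 of 17 in cen, against 7.33%.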

How the data were processed

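Whole-genome bisulfite libraries of 10-day seedlings were processed by the authors. Per the submitters' processing notes, reads were handled with FastQC, Trim Galore, cutadapt, Bismark and Bowtie2 (2.0) and the genome was TAIR10. The region caller and its settings are not given in the sources used here. As deposited by the authors, there were 6 lists of regions, whose column 6 is a difference of 2 methylation levels, above 0.1 in absolute size in every row. Depth per region is unknown.

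A region was placed at a gene when it shared a base with the gene or its flanks of 1 kb. RefSeq's gene table of TAIR10.1 gave the gene spans. Its coordinates are not printed, since its name differs from that of the authors' build, and it gives no strand or exons. The share of CG regions of ddb2-3 centred in protein-coding genes was 78.4% in place and 57.7% and 58.4% when moved by 5000 bp to either side. All 10 members were found in the table. Direction was read from windows with identical values in both comparisons (within 1.5e-06), which is likeliest where both lines have no methylation. Of 818 such CG windows, 806 were positive. The 7 CHG windows (4 positive) do not decide, so CHG values were read in the same direction as CG without a check of their own. Only 5 CHH windows were identical, all of them positive, and CHH values were read in that direction too. Bounds on levels follow from levels lying between 0 and 1. Centromeres were set at 15, 3.6, 14, 4 and 12 Mb on chromosomes 1 to 5.

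Members and lists were chosen with earlier results of these data known. Of 21 related or partner genes listed, 17 had the expected symbol in the table and 4 were not used. This left a planned list of partners of SUVH1 and SUVH3 empty. Of these lists, genes with a CHG or CHH region and the gene with the widest CG difference per list and line are named. Counting was tested on simulated data. Python 3.11.15, pandas 2.3.3, NumPy 2.4.6 and matplotlib 3.10.9 were used. Alternatives were other flanks, stricter limits on the difference, placement by midpoint and merging of neighbours.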

Additional observations from a re-analysis of the deposited data

Results flagged for a closer look

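At 3 places near or in SUVH genes the deposited CG values of the lines had opposite signs over shared bases, which flagged them; the difference was not tested, since the lists hold no level per library. In SUVH6 the value was 0.389 for ddb2-3 and -0.181 for cen in the same window. Beyond SUVH3 it was -0.241 for ddb2-3 and 0.516 for cen, whose region is longer by 1 window. In SUVH10 it was 0.423 for ddb2-3, over 300 bp, and -0.284 for cen, in 1 window of that stretch; the adjoining window of the stretch had 0.463 for cen, lower than Col like ddb2-3.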

How the results depend on the processing

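With 7 alternatives, 110 of 124 recomputed counts and medians stayed within 1.5 times the reported value. The CHG counts depend on the flank. With the gene alone, members and regions with CHG were 0 in ddb2-3 and 0 in cen, and with a flank of 500 bp they were 0 in ddb2-3. With a flank of 2 kb, ddb2-3 gained 1 CHH region at 1 member (SUVH4, higher), and cen had 2 CHG regions at 2 members, the added one at SUVH10 being higher. With differences of at least 2 times the smallest listed, 6 higher CG regions were left in ddb2-3 and 7 in cen, and 1 CHG region at 1 member in ddb2-3. The counts of members with a CG region stayed within 1.5 times under all 7 alternatives. No paired analysis was possible because the lists hold no level per library and no test was run. Depth per region is unknown, so no limit from depth can be given.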
